A study of Mus musculus with 6 samples.

Results

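Queuosine tRNAs are the 4 kinds of tRNA, for histidine, aspartate, asparagine and tyrosine, whose wobble guanosine can be exchanged for the modified base queuosine. The features studied here are all entries of the nuclear tRNA class whose names begin with tRNA-His, tRNA-Asp, tRNA-Asn or tRNA-Tyr. There were 73 of them among 869 nuclear tRNA features and 1753368 features of any kind with at least 1 read. They comprised 12 His, 17 Asp, 31 Asn and 13 Tyr features. Of these, 50 carried a gene name with an anticodon (10 His, 16 Asp, 13 Asn and 11 Tyr genes in 18 isodecoder families, which share an anticodon and a family number), and 23 carried a serial number in place of the anticodon.

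The reads come from eCLIP, in which ultraviolet light links RNA to protein in living cells, the protein is purified and the attached RNA is sequenced. The protein was mouse Gtsf1 (Asterix), a zinc-finger protein known from piRNA-guided silencing, with a TEV-Strep tag at its C-terminus. Expression was driven by the EF-1alpha promoter in the plasmid pEF, and the host was the mouse embryonal carcinoma line P19, transfected transiently. All 6 libraries came from cells given this plasmid, and no library of cells without the tagged protein was analysed here. The 4 groups were crosslinked pull-down (2 libraries, cells irradiated at 254 nm with 400 mJ), crosslinked input (2 libraries of lysate from irradiated cells), non-crosslinked pull-down (1 library) and non-crosslinked input (1 library). Nothing in the labels says that the 2 libraries of a crosslinked group came from separate cultures, so p-values measure only the spread between these libraries, which may be technical.

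Queuosine is not made by animals from scratch. Its base, queuine, is taken up from food and gut microbes, and an enzyme of the subunits Qtrt1 and Qtrt2 exchanges it for the guanosine at the wobble position of the anticodons GTG, GTC, GTT and GTA (as written for the genes). In tRNA-Asp and tRNA-Tyr a sugar is then added to the queuosine. The base affects how these tRNAs read codons that end in C or U, and it has been linked to protection of the tRNA from cleavage at the anticodon. tRNA-His is set apart by an extra guanosine at its start, tRNA-Asp by a cytosine methylation in its anticodon loop that is promoted by queuosine, and tRNA-Tyr by an intron that is spliced out of the precursor. The libraries measure RNA reads and give no measure of queuosine itself.

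In RefSeq annotation of the mouse build GRCm38.p6, the 10 His genes and 16 Asp genes are 72 bases long, the 13 Asn genes 74 bases, and the 10 Tyr genes 86 to 93 bases with their intron. The His genes lie on 3 chromosomes, the Asp genes on 6, the Asn genes on 7 and the Tyr genes on 4, some of them close together. On chromosome 3, 6 His genes lie within chr3:96410069-96500437 and 6 Asn genes within the overlapping stretch chr3:96322074-96497854. A further 3 His genes lie in chr2:122375494-122378039. Of the Asp genes, 5 lie in chr1:171037029-171102442, 3 in chr13:21911313-21940390 and 2 in chr5:125405607-125409087. Of the Tyr genes, 6 lie in chr13:23425646-23467165 and 2 in chr3:19628355-19628870. The gene names in RefSeq do not pair with the names in the deposited files, so positions are given for these clusters, which leave out part of the genes, and not for single genes.

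Libraries held 13168593 to 18418166 reads, of which 6.99% to 14.4% lay in no annotated feature, and 1 read was worth 0.0543 to 0.0759 RPM, reads per 1e6 reads of the library. Nuclear tRNA took 16068, 18290, 19348 and 12044 reads in the non-crosslinked input, crosslinked inputs 1 and 2 and the non-crosslinked pull-down. It took 54398 and 142964 reads in crosslinked pull-downs 1 and 2, which therefore differed widely from each other. Of 8 P19 marker genes 6 were listed at the pre-mRNA level (not Sox2 and Nanog), and these summed to between 9.23 and 14.5 RPM per library, with Pou5f1, which keeps these cells undifferentiated, at 4.72 to 8.34 RPM. None of 4 endoderm markers was listed. Of 3 neuron and 3 muscle markers 1 each was listed, Map2 at up to 0.532 RPM and Myh6 at up to 0.0316 RPM. The P19 markers Sall4 and Utf1, at up to 0.152 and 0.286 RPM, were no higher than Map2 in any library. Since Sox2 and Nanog were not listed either, a marker that is not listed cannot be read as absent.

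The 4 tRNAs were all higher in the crosslinked pull-downs than in the crosslinked inputs, but to very different extents. tRNA-His had the largest ratio of the 4, 130-fold, followed by tRNA-Asn at 27.8-fold, tRNA-Tyr at 7.87-fold and tRNA-Asp at 4.19-fold. tRNA-Asp was by far the most abundant and made up 81.0% to 99.4% of the reads of the 4 in every library (counted as reads, not divided by the 72 to 93 bases of the genes). His, Asn and Tyr passed the test on the sums and Asp did not. The Asn sum, with an input mean of 0.919 RPM, entered the test only through its pull-downs. In the pair of libraries made without crosslinking, His was again far higher in the pull-down, whereas Asp was lower there than in the input.

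**Figure D1:**
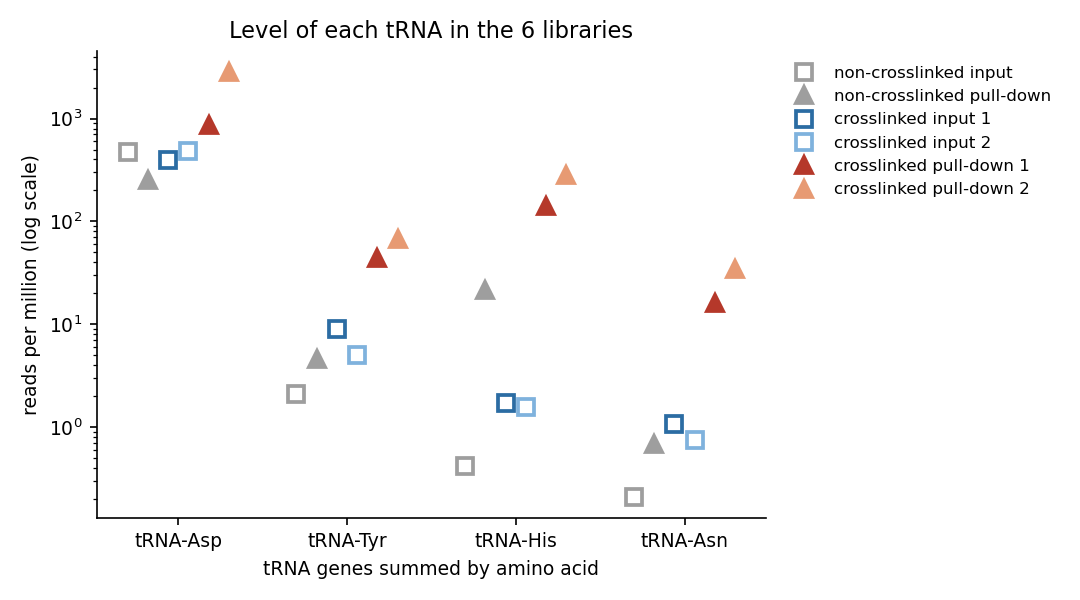
RPM (log scale) of all tRNA-Asp, tRNA-Tyr, tRNA-His and tRNA-Asn features summed, in each of the 6 libraries; open squares are inputs and filled triangles pull-downs, with no error bars because each point is 1 library. Both crosslinked pull-downs lie above both crosslinked inputs for each tRNA, and the non-crosslinked pull-down lies above its input for Tyr, His and Asn and below it for Asp (255 against 472 RPM).

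tRNA-His carries histidine and is recognised by its synthetase through the extra guanosine. Summed over its 12 features it held 30 and 29 reads in the crosslinked inputs, against 2291 and 4502 reads in the crosslinked pull-downs. The non-crosslinked input held 6 reads and the non-crosslinked pull-down 286. The pull-downs were thus high with and without irradiation, and no pull-down overlapped an input. In RPM the crosslinked pull-downs averaged 213 ± 101 (SD, n = 2) and the crosslinked inputs 1.65 ± 0.101 (SD, n = 2), which gave 86.4-fold for pull-down 1 and 173-fold for pull-down 2 over the mean of the inputs. The log2 ratio in edgeR's quasi-likelihood test was 7.11 (SE 0.45, adjusted p = 0.000263), 6.50 without pull-down 2, and 6.26 with limma on log2(RPM + 1).

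Without crosslinking, the pull-down held 51.2 times the RPM of its input, with a 95% interval from counting error of 23.2 to 141 because the input held only 6 reads. This was the highest non-crosslinked ratio among the 23 amino acid labels of nuclear tRNA. The crosslinked ratio of 130 ranked second among the 23, after the 231-fold of tRNA-Gln. The crosslinked pull-downs averaged 9.82 times the RPM of the non-crosslinked pull-down, and the crosslinked inputs averaged 3.88 times the RPM of the non-crosslinked input.

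Most His reads fell on the 8 copies of tRNA-His-GTG-2, which took 92.0% to 97.4% of them in each library. Reads that match several copies were divided among them, and the copies of this family accordingly had nearly the same values. For example, tRNA-His-GTG-2-1 had 3.65 and 3.50 reads in the crosslinked inputs, against 263 and 516 in the crosslinked pull-downs. The highest copy, tRNA-His-GTG-2-4, had the same input values and 281 and 570 reads in the pull-downs. The log2 ratios of the family ran from 6.82 for tRNA-His-GTG-2-1 and tRNA-His-GTG-2-3 to 7.04 for tRNA-His-GTG-2-8, and all 8 copies were called higher. Without crosslinked pull-down 2 these ratios fell to 6.22 for tRNA-His-GTG-2-1 and 6.42 for tRNA-His-GTG-2-8. For tRNA-His-GTG-2-1 limma gave 4.33 on log2(RPM + 1) and 6.27 with a pseudocount of 0.1.

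The other His genes are single copies. tRNA-His-GTG-3-1 had 0.778 and 0.889 reads in the crosslinked inputs, against 101 and 196 in the crosslinked pull-downs, 0.222 in the non-crosslinked input and 3.78 in the non-crosslinked pull-down. tRNA-His-GTG-1-1 had 0 and 0.222 reads in the crosslinked inputs, against 64.5 and 97.3 in the crosslinked pull-downs, 0 in the non-crosslinked input and 19.1 in the non-crosslinked pull-down. Both were almost unread in the inputs and high in the crosslinked pull-downs, and only tRNA-His-GTG-1-1 was clearly above the 3-read floor in the non-crosslinked pull-down. Their edgeR log2 ratios of 7.30 (SE 0.65, adjusted p = 0.000889) and 9.48 (SE 0.76, adjusted p = 0.00135) rest on input counts under 1 read and are no measure of size. Set against a floor of 3 reads in the non-crosslinked input, tRNA-His-GTG-1-1 was 6.85-fold higher in the non-crosslinked pull-down. This value leaves out the counting error of the pull-down.

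tRNA-Asp, which carries aspartate, was the most abundant nuclear tRNA label of the crosslinked pull-downs. It held 6896 and 8961 reads in the crosslinked inputs, against 13882 and 44842 reads in the crosslinked pull-downs. The non-crosslinked input held 6674 reads and the non-crosslinked pull-down 3361. The crosslinked pull-downs were both above the inputs, pull-down 2 far above pull-down 1, and the non-crosslinked pull-down was the lowest of all 6 libraries.

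In RPM the crosslinked pull-downs averaged 1847 ± 1394 (SD, n = 2) and the crosslinked inputs 441 ± 64.8 (SD, n = 2), with 1.95-fold for pull-down 1 and 6.43-fold for pull-down 2. The edgeR log2 ratio was 2.16 (SE 0.53) with an adjusted p of 0.0563, which missed the threshold of 0.05. It passed with unannotated reads in the library sizes (edgeR adjusted p = 0.0414) and with DESeq2 (adjusted p = 5.07e-05). In no other setting that kept all crosslinked libraries did it pass. Without crosslinked input 1, crosslinked input 2 or crosslinked pull-down 1 the edgeR adjusted p was 0.0055, 0.0011 and 0.000509, but each of these fits has 1 library in an arm, which is assumed to vary like the other group, and they add no evidence to the fit of all 4. Without crosslinked pull-down 2 the log2 ratio was 1.04 and the adjusted p 0.0578. The ratio of pull-down 2 to pull-down 1 was 3.29 for Asp, the highest among the 23 labels, against 2.15 for Asn, 2.00 for His and 1.54 for Tyr.

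The non-crosslinked pull-down held 0.541 times the Asp RPM of its input, with a 95% counting interval of 0.519 to 0.564. Only 3 of the 23 labels had a non-crosslinked ratio under 1, which were Ala, Asp and Glu, and these were also the 3 labels with the highest mean RPM in the crosslinked pull-downs. Crosslinked and non-crosslinked inputs were close for Asp, with a ratio of 0.934.

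**Figure D2:**
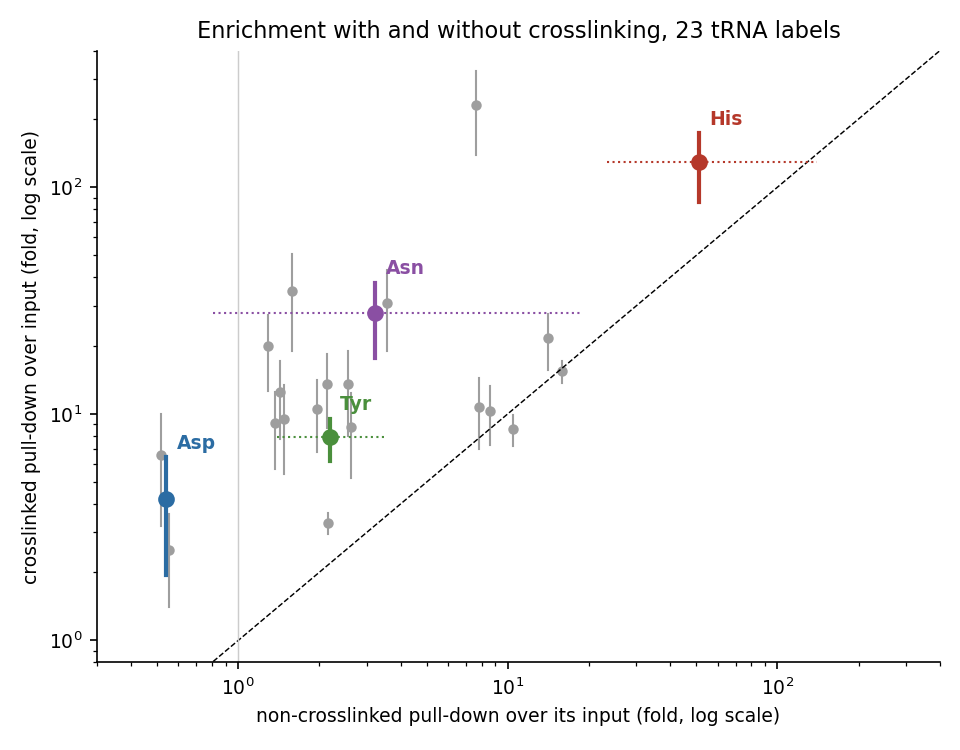
Ratio of pull-down to input in crosslinked libraries (vertical, log scale) against the ratio in non-crosslinked libraries (horizontal, log scale) for 23 amino acid labels of nuclear tRNA. Points are ratios of mean RPM, vertical lines join the ratios of crosslinked pull-downs 1 and 2, dotted lines are 95% counting intervals of the non-crosslinked ratio for the 4 named tRNAs, and the dashed line marks equal ratios; His lies farthest to the right (51.2) and Asp is among the 3 labels left of 1 (0.541).

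The Asp families differed. The 13 copies of tRNA-Asp-GTC-1, numbered from tRNA-Asp-GTC-1-1 to tRNA-Asp-GTC-1-13, took 86.6% to 94.8% of all Asp reads, and their values within a library differed by at most 1.07-fold. tRNA-Asp-GTC-1-7, the copy with the highest mean in the pull-downs, had 500 and 661 reads in the crosslinked inputs, against 930 and 3031 in the crosslinked pull-downs, 483 in the non-crosslinked input and 232 in the non-crosslinked pull-down. None of the 13 copies was called, with log2 ratios from 2.04 (tRNA-Asp-GTC-1-5 and tRNA-Asp-GTC-1-6) to 2.08 and edgeR adjusted p-values from 0.0703 to 0.073. DESeq2 called all 13, with adjusted p-values from 0.000343 to 0.000429. Without crosslinked pull-down 2 the edgeR log2 ratios ran from 0.91 to 0.95, and without crosslinked pull-down 1 from 2.66 to 2.70. Without crosslinked input 1 they ran from 1.88 to 1.90, and without crosslinked input 2 from 2.22 to 2.28. Each of these fits has 1 library in an arm and adds no evidence to the fit of all 4 libraries. These copies share reads, so their 13 results are not independent of each other.

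The single gene tRNA-Asp-GTC-2-1 had 446 and 457 reads in the crosslinked inputs, against 1668 and 5487 in the crosslinked pull-downs, with 422 in the non-crosslinked input and 308 in the non-crosslinked pull-down. Its crosslinked ratio was 4.11-fold in pull-down 1, 13.8-fold in pull-down 2 and 8.94-fold on average (log2 3.26, SE 0.56, edgeR adjusted p = 0.0163, with log2 2.12 without pull-down 2) and its non-crosslinked ratio 0.785 (95% counting interval 0.675 to 0.911). It was thus higher in the crosslinked pull-downs and lower in the non-crosslinked one, as the GTC-1 family was.

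The 2 rarest Asp genes had another pattern. tRNA-Asp-GTC-4-1 had 12.0 and 9.28 reads in the crosslinked inputs, against 177 and 252 in the crosslinked pull-downs, but also 42.3 in the non-crosslinked pull-down against 3 in the non-crosslinked input. Its crosslinked ratio was 22.5-fold (log2 4.60, SE 0.31, edgeR adjusted p = 0.000385; 3.16 with limma on log2(RPM + 1)), from an input mean of 0.597 RPM with which it passed the filter only through its pull-downs. Its non-crosslinked ratio was 15.2-fold (95% counting interval 4.81 to 75.9). tRNA-Asp-GTC-3-1 had 0 and 0.0667 reads in the crosslinked inputs, against 13.8 and 15.2 in the crosslinked pull-downs, 0 in the non-crosslinked input and 10.2 in the non-crosslinked pull-down. Both genes were above the input in every pull-down, unlike the abundant Asp families in the non-crosslinked pair. Against a floor of 3 reads, tRNA-Asp-GTC-3-1 was 3.65-fold higher in the non-crosslinked pull-down, a value that leaves out the counting error of the pull-down. It was too rare to be tested.

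tRNA-Asn, which carries asparagine, was the rarest of the 4. It held 19 and 13.8 reads in the crosslinked inputs, against 262 and 552 in the crosslinked pull-downs. The non-crosslinked input held 3 reads and the non-crosslinked pull-down 9. The crosslinked pull-downs stood clear of the other 4 libraries. In RPM the crosslinked pull-downs averaged 25.6 ± 13.2 (SD, n = 2) and the crosslinked inputs 0.919 ± 0.238 (SD, n = 2), 17.7-fold for pull-down 1 and 37.9-fold for pull-down 2. The edgeR log2 ratio was 4.88 (SE 0.47, adjusted p = 0.00101), 4.21 without pull-down 2, and 3.70 with limma on log2(RPM + 1). The non-crosslinked ratio was 3.22, with a 95% counting interval of 0.805 to 18.5 that includes 1, so an increase without crosslinking was not detectable at this depth.

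The 9 copies of tRNA-Asn-GTT-3 took 66.7% to 94.5% of the Asn reads. tRNA-Asn-GTT-3-6 had the highest mean in the pull-downs, with 1.92 and 1.10 reads in the crosslinked inputs, against 27.3 and 64.2 in the crosslinked pull-downs (log2 5.06, SE 0.81, edgeR adjusted p = 0.0118). tRNA-Asn-GTT-3-5 was at the low end of the family, with 1.52 and 1.10 reads in the inputs and 24.9 and 55.1 in the pull-downs (log2 4.87, SE 0.74, edgeR adjusted p = 0.00959). tRNA-Asn-GTT-3-3 and tRNA-Asn-GTT-3-8 lay between or level with them, at log2 ratios of 5.01 and 4.87, and all 9 copies were called higher. With under 3 reads per copy in each input, these ratios are no measure of size: for tRNA-Asn-GTT-3-6 limma gave 1.77 on log2(RPM + 1) and 3.90 with a pseudocount of 0.1. Without crosslinked pull-down 2 the ratio was 4.29 for tRNA-Asn-GTT-3-6 and 4.18 for tRNA-Asn-GTT-3-5.

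The remaining 4 Asn families are single genes that did not reach the filter of a mean of 1 RPM. tRNA-Asn-GTT-2-1, the most abundant, had 0.2 and 0.282 reads in the crosslinked inputs, against 8.58 and 12.0 in the crosslinked pull-downs. tRNA-Asn-GTT-5-1 was the only named gene of the 50 without both crosslinked pull-downs above both crosslinked inputs, with 2 reads in pull-down 1 and 0 in the other libraries.

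tRNA-Tyr, which carries tyrosine, held 159 and 92 reads in the crosslinked inputs, against 705 and 1063 in the crosslinked pull-downs. The non-crosslinked input held 30 reads and the non-crosslinked pull-down 61. The crosslinked pull-downs were the highest libraries, and the non-crosslinked pull-down lay below both crosslinked inputs. In RPM the crosslinked pull-downs averaged 55.5 ± 16.6 (SD, n = 2) and the crosslinked inputs 7.05 ± 2.91 (SD, n = 2), 6.20-fold for pull-down 1 and 9.53-fold for pull-down 2. The edgeR log2 ratio was 3.07 (SE 0.35, adjusted p = 0.00218). The non-crosslinked ratio was 2.19 (95% counting interval 1.39 to 3.50). The crosslinked inputs averaged 3.33 times the RPM of the non-crosslinked input (95% counting interval 2.25 to 4.99 with the inputs pooled).

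Within Tyr, the single gene tRNA-Tyr-GTA-6-1 had a lower ratio than the other families and no excess in pull-down 2, which was not tested as a difference. It had 104 and 67 reads in the crosslinked inputs, against 388 and 369 in the crosslinked pull-downs, 15 in the non-crosslinked input and 31 in the non-crosslinked pull-down, and it took 34.7% to 72.8% of the Tyr reads. Its counts were whole numbers in all 6 libraries (within 0.001), unlike those of the other named Tyr genes. Its crosslinked ratio was 4.94-fold, the lowest of the Tyr families (log2 2.40, SE 0.24, edgeR adjusted p = 0.00153), and pull-down 2 held 0.969 times the RPM of pull-down 1.

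In the other Tyr families with an edgeR result, pull-down 2 held 2.19 to 2.38 times the RPM of pull-down 1. tRNA-Tyr-GTA-2-1 had 8.43 and 4.03 reads in the crosslinked inputs, against 72.9 and 160 in the crosslinked pull-downs (log2 4.51, SE 0.58, edgeR adjusted p = 0.00439). tRNA-Tyr-GTA-3-2 had 17.9 and 6.53 reads in the inputs and 72.9 and 161 in the pull-downs (log2 3.48, SE 0.55, edgeR adjusted p = 0.0114). tRNA-Tyr-GTA-4-1 had 6.1 and 0.2 reads in the inputs and 30.3 and 67.3 in the pull-downs (log2 4.21, SE 0.81, edgeR adjusted p = 0.0246), and with DESeq2 it missed the threshold at an adjusted p of 0.187. Leaving out 1 crosslinked library moved these edgeR log2 ratios between 3.81 and 5.10 for tRNA-Tyr-GTA-2-1, between 2.77 and 4.32 for tRNA-Tyr-GTA-3-2, and between 3.22 (without input 2) and 8.71 (without input 1) for tRNA-Tyr-GTA-4-1. The 3 genes were high in both crosslinked pull-downs, and their inputs were too sparse for a firm ratio.

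The tRNA-Tyr-GTA-1 family has 5 copies, none of which reached the filter alone. The family sum did, with log2 4.12 (SE 0.57, edgeR adjusted p = 0.00606). tRNA-Tyr-GTA-5-1 had 0.433 and 0.2 reads in the crosslinked inputs, against 3.88 and 5.15 in the crosslinked pull-downs, and was not tested.

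**Figure D3:**
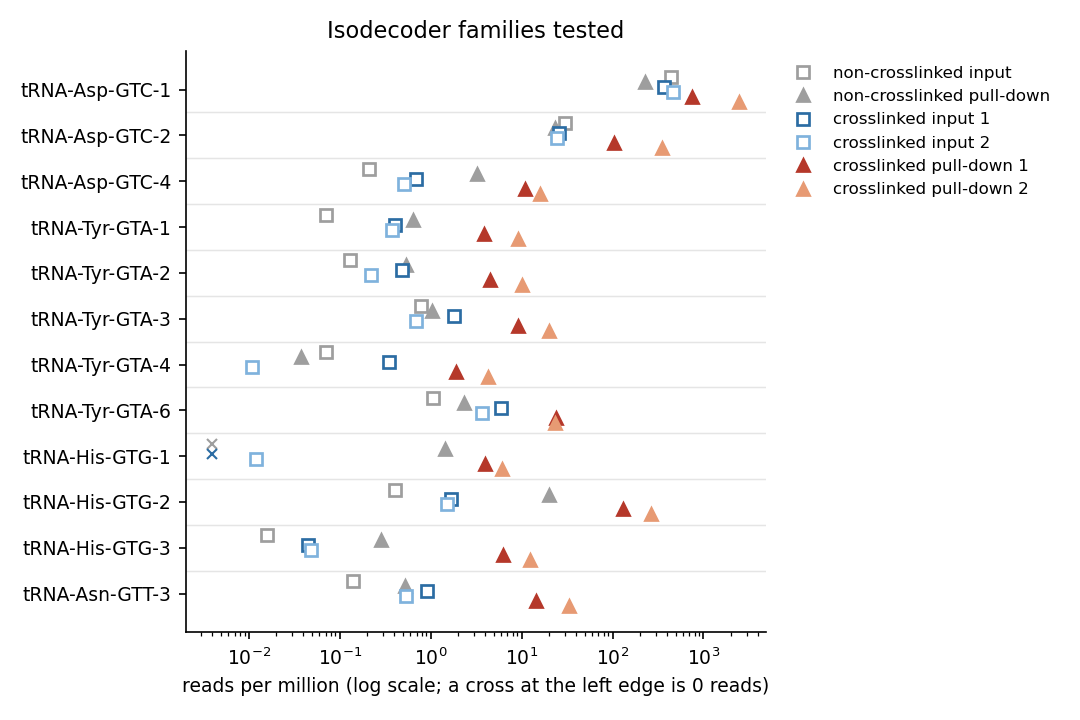
RPM (log scale) of the 12 isodecoder families whose RPM averaged 1 or more across crosslinked libraries, in each of the 6 libraries; open squares are inputs, filled triangles pull-downs, and crosses at the left edge mark 0 reads. The non-crosslinked pull-down (grey triangle) lies left of its input (grey square) for tRNA-Asp-GTC-1, tRNA-Asp-GTC-2 and tRNA-Tyr-GTA-4 (the last with 0.5 and 1 reads), and pull-downs 1 and 2 nearly coincide only for tRNA-Tyr-GTA-6.

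Counted over single genes, 39 of the 73 features averaged 1 RPM or more across crosslinked libraries and were tested with edgeR, and 26 were called higher (10 of 10 His, 2 of 15 Asp, 9 of 9 Asn and 5 of 5 Tyr) and 0 lower. Of all 39872 features tested, 6.41% were called higher and 3.47% lower. All 39 had an unadjusted p under 0.05, and DESeq2 called 38 of them. Fits that left out 1 crosslinked library have 1 library in an arm, which is assumed to vary like the other group. They add no evidence to the count of 26.

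Of the 39, 24 had an input mean under 1 RPM and passed the filter only through the pull-downs, where they had to be high. The count is therefore a description of the genes and no support for a rise of the set. The 15 with an input mean of at least 1 RPM were 14 Asp genes and tRNA-Tyr-GTA-6-1. Of these 15, only tRNA-Asp-GTC-2-1 and tRNA-Tyr-GTA-6-1 were called higher. All other called genes were among the 24. The untested 34 were 11 named genes and all 23 numbered features. No numbered feature had more than 4.3 reads in a library.

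Both crosslinked pull-downs were above both crosslinked inputs for all 39 tested genes, against 10.8% of all tested features. They were so for 49 of the 50 named genes, 11 of which were not tested and have no such background here. Summed by isodecoder family, 11 of 12 tested families were called higher and 0 lower, against 6.2% of all features called higher in that table, and the family not called was tRNA-Asp-GTC-1. Summed by amino acid, 3 of 4 were called higher, against 6% of all features. Of the other amino acid labels of nuclear tRNA, 17 of 18 tested were called higher and 0 lower, so the calls were not particular to the queuosine tRNAs. Most of these families and the Asn sum also passed the filter only through the pull-downs, so these counts are set beside the background as a description and support nothing. Over all features of the single-feature table the median log2 ratio was -0.21, or -0.01 with TMM scaling factors. In the single-feature table edgeR called 2556 features higher and 1384 lower, which became 2741 and 635 with TMM factors, while the members stayed at 26 and 0.

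The comparison of crosslinked with non-crosslinked ratios asks how much of the recovery on the beads needed irradiation. On the log2 scale, the crosslinked ratio exceeded the non-crosslinked one by 2.95 for Asp (SE 0.90), 3.12 for Asn (SE 1.86), 1.85 for Tyr (SE 0.68) and 1.35 for His (SE 0.98). The edgeR adjusted p-values were 0.329, 0.467, 0.348 and 0.53, so none passed the threshold. Each non-crosslinked group has 1 library, which is assumed here to vary like the crosslinked ones. Over all 39634 features of that table, edgeR called 0 (0%), with 5415 at an unadjusted p under 0.05, limma also called 0, and DESeq2 called 8 higher and 158 lower, none of them among the 4 tRNAs.

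The unadjusted p was under 0.05 for Asp (0.015) and Tyr (0.0323). For Asp, the edgeR log2 difference was 2.79 without crosslinked input 1 and 3.12 without crosslinked input 2. It was 3.57 without crosslinked pull-down 1 and 1.82 without crosslinked pull-down 2. In these fits 3 of the 4 groups hold 1 library and only 1 pair supplies the spread between libraries. With limma on log2(RPM + 1) the His difference was 2.26. Without crosslinked pull-down 2 the difference was 0.75 for His and 2.45 for Asn. The median difference over all features was 0.56, or -0.02 with TMM factors, and with these factors the values of the 4 tRNAs were 0.78 for His, 2.39 for Asp, 2.55 for Asn and 1.29 for Tyr. Among families, the difference was 2.90 for tRNA-Asp-GTC-1 and 3.50 for tRNA-Asp-GTC-2 but 0.63 (SE 1.04) for tRNA-Asp-GTC-4, with edgeR adjusted p-values of 0.332, 0.332 and 0.776.

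The tRNA-His ratio relative to tRNA-Asp can also be read within a library, though the value for the non-crosslinked input rests on 6 His reads. There were 1112 Asp reads for each His read in the non-crosslinked input, and 230 and 309 in the crosslinked inputs. There were 11.8 in the non-crosslinked pull-down, and 6.06 and 9.96 in the crosslinked pull-downs. All pull-downs therefore had a far smaller excess of Asp than all inputs.

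As shares of all nuclear tRNA reads, the 4 tRNAs together took 38.8% and 47.0% in the crosslinked inputs, against 31.5% and 35.6% in the crosslinked pull-downs, which averaged 42.9% ± 5.78 and 33.6% ± 2.92 (SD, n = 2 each). The non-crosslinked input gave 41.8% (95% Wilson interval 41.0 to 42.5) and the non-crosslinked pull-down 30.9% (30.0 to 31.7). The share was therefore lower in each pull-down than in any input, and this followed Asp. As a share of all annotated reads the direction was the opposite, with a pull-down to input ratio of 5.084 for the 4 together and 4.482 for Asp.

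Asp took 42.0% ± 6.09 of the tRNA reads in the crosslinked inputs, against 28.4% ± 4.13 in the crosslinked pull-downs (SD, n = 2 each), with 41.5% and 27.9% in the non-crosslinked input and pull-down. His went the other way, from 0.157% ± 0.0100 to 3.68% ± 0.752 with crosslinking, and from 0.0373% to 2.37% without. Asn took 0.0877% ± 0.0229 and 0.434% ± 0.0675. Tyr took 0.672% ± 0.278 and 1.02% ± 0.391, and its groups overlapped.

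With 2 libraries against 2, the two-sided exact permutation test has 6 splits and cannot give a p below 0.333. It gave 0.333 for His, Asp, Asn and the 4 together, whose groups did not overlap, and 0.667 for Tyr. Adjusted over the 5 shares, these permutation p-values were 0.417 and 0.667, so no share could pass the threshold in this design.

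**Figure D4:**
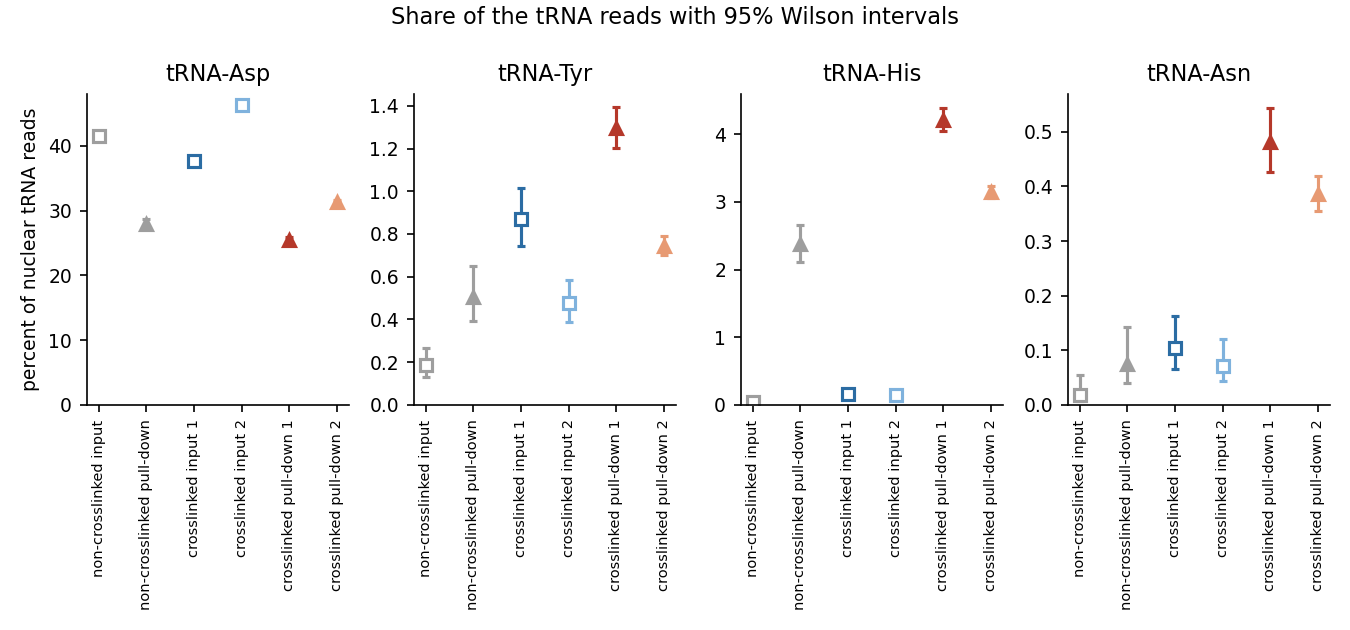
Share of nuclear tRNA reads (percent, linear axes from 0, a separate scale for each panel) taken by tRNA-Asp, tRNA-Tyr, tRNA-His and tRNA-Asn in each of the 6 libraries; open squares are inputs, triangles pull-downs, and bars 95% Wilson intervals, which cover counting error only. Asp is lower in all pull-downs (25.5% to 31.4%) than in all inputs (37.7% to 46.3%), and His is higher in all pull-downs (2.37% to 4.21%) than in all inputs (0.0373% to 0.164%).

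Other nuclear tRNA genes, summed, had a crosslinked ratio of 6.79 (3.86 and 9.71 in the 2 pull-downs) and a non-crosslinked ratio of 0.957. The 4 tRNAs together had a crosslinked ratio of 4.76 (2.36 and 7.15) and a non-crosslinked ratio of 0.595. Without Asp, the sum of His, Asn and Tyr had ratios of 30.6 and 9.81. tRNAs that also start their anticodon with G but receive no queuosine give a nearer comparison. Their ratios were 5.82-fold for Gly-GCC, 10.7-fold for Cys-GCA, 13.5-fold for Phe-GAA and 8.76-fold for Ser-GCT, and 6.71-fold for the sum. In pull-down 1 alone they were 3.81, 6.97, 8.63 and 4.87, and in pull-down 2 alone 7.82, 14.4, 18.4 and 12.7. The queuosine tRNAs lay on both sides of these values, in pull-down 1 and in pull-down 2 alike, with Asp under all 4, Tyr over Gly-GCC and under Cys-GCA and Phe-GAA, and Asn and His over all 4. Tyr was over Ser-GCT in pull-down 1 (6.20 against 4.87) and under it in pull-down 2 (9.53 against 12.7). Without tRNA-Tyr-GTA-6-1, a set chosen after its values were seen, the Tyr ratio was 14.1. No test was made between these sets.

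Mitochondria have their own tRNAs for the same amino acids, which also receive queuosine. The mitochondrial tRNA-His had 16.04 ± 5.02 RPM in the crosslinked inputs, against 16.5 ± 0.832 in the crosslinked pull-downs (SD, n = 2 each), a ratio of 1.03 (log2 0.13, SE 0.23, edgeR adjusted p = 0.774), in contrast to the 130-fold of the nuclear tRNA-His. The mitochondrial tRNA-Asp was 2.70-fold higher in the pull-downs (log2 1.52, edgeR adjusted p = 0.00188) and the mitochondrial tRNA-Asn 2.41-fold (log2 1.36, edgeR adjusted p = 0.0463). The mitochondrial tRNA-Tyr was not analysed here. The difference between nuclear and mitochondrial tRNA was not tested.

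The genes that act on these tRNAs were read at the level of their pre-mRNA features. All 21 were listed and 6 passed the filter, and edgeR called 0 of them higher and 0 lower, where 6.41% and 3.47% of all features were called. The tested genes were the synthetases Dars, Nars and Yars, which charge tRNA-Asp, tRNA-Asn and tRNA-Tyr, the tRNA ligase Rtcb, which joins the exons of spliced tRNA, and Ssb and Elac2, which act on precursor ends. Nars, for example, had 3.61 and 3.37 RPM in the crosslinked inputs, against 3.04 and 2.72 in the crosslinked pull-downs. The 5 genes of queuosine insertion, salvage and sugar addition (Qtrt1, Qtrt2, Qng1, B3gntl1 and Gtdc1) summed to between 1.18 and 2.58 RPM per library, and none was tested.

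The authors' deposited table gives an enrichment ratio per feature, computed in a way not given in the sources used here, and lists 43 of the 73 members. In the authors' deposited table their ratios run from 7.76 for tRNA-Asp-GTC-1-6 to 443 for tRNA-Tyr-GTA-4-1, with tRNA-His-GTG-3-1 next at 426. The medians there are 226 for 9 His genes, 80.8 for 9 Asn genes, 40.5 for 10 Tyr genes and 7.81 for 15 Asp genes, in the same order as the ratios of the sums. The median over the 322 tRNA features of the authors' deposited table is 20.9, and over all its 216085 features 1.37. The highest member there, tRNA-Tyr-GTA-4-1, had 0.2 reads in crosslinked input 2.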

How the data were processed

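Per feature and library, the authors deposited 2 values: an expected count, for which reads matching several features were divided into fractions, and RPM, scaled to all reads of the library. The authors also deposited a table of enrichment ratios for the whole series. Per the submitters' processing notes, bcl2fastq 2.19, STAR 2.5.2b, bedtools 2.29.0 and the build mm10 were used. The annotation, the use of strand and any removal of duplicates are not given in the sources used here, so reads from genes overlapping a tRNA gene cannot be told apart from it.

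Rounded counts entered edgeR 4.0.16 (quasi-likelihood test, R 4.3.3), with annotated reads as library sizes, on features averaging at least 1 RPM across the crosslinked libraries. Unannotated reads (6.99% to 14.4%) stayed out of library sizes and tests. The call threshold was an adjusted p of 0.05 (Benjamini-Hochberg, over the whole table). SE is the log2 ratio divided by the square root of the F statistic. The same fit was run with nuclear tRNA summed by amino acid, and by family, the latter chosen after the data were seen. A 4-group fit gave the crosslinked minus the non-crosslinked log2 ratio. Ratios of single libraries carry exact conditional binomial intervals, shares Wilson intervals, both at 95% and for counting error only, since PCR copies are not independent molecules. In bulk libraries, more RNA per cell and more cells holding it cannot be told apart.

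On simulated counts with 200 features changed by 2 (log2), edgeR recovered 194 with 12 false calls for pull-down over input (39872 features), and 91 with 5 false calls for the difference of ratios (39634 features). The simulated spread between libraries was set to the same value for all features and not taken from these data. Only features above a set expected count were changed. The recovery is therefore no measure of power for these tRNAs. Members and lists were chosen with earlier results of these data known. Single genes were named by a rule: per amino acid the 2 highest means in the crosslinked pull-downs, the 2 highest and 2 lowest log2 ratios, and any tested member not called. tRNA-Asp-GTC-3-1, tRNA-Asn-GTT-2-1, tRNA-Asn-GTT-5-1 and tRNA-Tyr-GTA-5-1 and the families were named after their values were seen. Alternatives were other filters, scalings and pseudocounts, DESeq2 1.42.0, limma 3.58.1, all 6 libraries in 1 fit, rRNA left out, identical features counted once, sums per anticodon, a replicate block, another denominator for shares, and each crosslinked library left out. No member sequence is printed.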

Additional observations from a re-analysis of the deposited data

Results flagged for a closer look

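Asp was 0.5412 times as high in the non-crosslinked pull-down as in its input, while both crosslinked pull-downs were above both crosslinked inputs. The same held for its families tRNA-Asp-GTC-1, with a non-crosslinked ratio of 0.5159, and tRNA-Asp-GTC-2, with 0.7851. An edgeR test of the crosslinked against the non-crosslinked ratio did not pass, with adjusted p-values of 0.329 for Asp and 0.332 for each of these families. Nuclear tRNA, Asp included, took 0.114% of reads in the non-crosslinked input and 0.0915% in the non-crosslinked pull-down. It took 0.105% in both crosslinked inputs, and 0.338% and 0.903% in the crosslinked pull-downs. Asp alone was 41.5% of the nuclear tRNA reads of the non-crosslinked input, so the share is not independent of Asp. Nuclear tRNA genes outside the 4, summed, had a pull-down to input ratio of 0.957 without crosslinking and 6.79 with it. The part of the nuclear tRNA share in the Asp result was not tested.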

How the results depend on the processing

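The count of 26 single genes called higher was 11 of 24 tested at a mean of at least 5 RPM. Of all 5928 features tested at that filter, 551 were called higher. With edgeR and no filter the count of genes was 0 of 68 tested. There the adjustment runs over 942743 features, and none was called although 41845 had an unadjusted p under 0.05. With no filter, edgeR's adjusted p for the sums rose to 0.134 for His (log2 7.107), 0.232 for Asn (4.879) and 0.269 for Tyr (3.074). The Asp sum passed with unannotated reads in the library sizes (log2 2.068, edgeR adjusted p = 0.0414) and with DESeq2 (log2 2.394, adjusted p = 5.07e-05). Leaving out each crosslinked library in turn, it ran from 1.042 to 2.787, and its crosslinked minus non-crosslinked difference from 1.825 to 3.569. With all annotated reads as denominator, the pull-down to input ratio of shares turned from 0.677 to 4.482 for Asp and from 0.782 to 5.084 for the 4 together, because tRNA as a whole rose. The count of genes ran from 26 to 39 over the left-out libraries, in fits with 1 library in an arm. Same-numbered libraries deviated together only weakly (correlation 0.111, 2 pairs), so the numbers were not taken as pairing; with a replicate block, 26 genes were called and the sums were 7.03 for His, 1.92 for Asp (edgeR adjusted p = 0.061), 4.81 for Asn and 3.08 for Tyr, with no call changed. Depth limits Asn and His most, with 3 and 6 reads in the non-crosslinked input.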

Other observations

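The 23 numbered features held few reads, and 17 of them were seen in a single library. The 18 numbered Asn features summed to 0.178 ± 0.00926 RPM in the crosslinked inputs and 0.516 ± 0.241 RPM in the crosslinked pull-downs (SD, n = 2 each), a ratio of 2.89 (3.85 and 1.94 in the 2 pull-downs) against 33.8 for the 13 named Asn genes (21.0 and 46.6). Chosen after its values were seen, the sum of Tyr without tRNA-Tyr-GTA-6-1 had a crosslinked ratio of 14.1, with 8.73-fold for pull-down 1 and 19.5-fold for pull-down 2, and a non-crosslinked ratio of 2.15 (95% counting interval 1.12 to 4.30). Asp without the tRNA-Asp-GTC-1 family, also chosen after its values were seen, had 9.28-fold with crosslinking (4.47-fold for pull-down 1 and 14.1-fold for pull-down 2) and 0.912 without (95% counting interval 0.791 to 1.05).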
